A study of Mus musculus with 35 samples.

Results

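The actin cytoskeleton regulators are 48 genes chosen by name. They comprise actin monomer binding proteins, the Arp2/3 complex, nucleation and elongation factors, coronins, capping proteins, cross-linkers, nonmuscle myosin II, membrane linkers and the intermediate filament gene Vim. All 48 symbols were found among 48709 gene rows, and all 48 were among the 13819 genes that passed the filter on low counts. The libraries came from OT-I cytotoxic T lymphocytes (CTLs), which are CD8+ T cells of mice that carry a T-cell receptor transgene specific for ovalbumin. The 35 libraries form 7 groups of 5 biological replicates: CTLs at 0 h, and CTLs after 24 h in medium of pH 7.4, pH 7 or pH 6.6, each with 200 IU/mL murine IL-2 or without IL-2. By the study's methods, spleen CD8+ T cells were activated through CD3 and CD28 and expanded in IL-2. Cells of every group, also those without IL-2 for 24 h, had therefore been grown in IL-2 before. The pH was set with HCl, and dead cells were removed on Ficoll before RNA extraction. The sources used here do not give the age or sex of the mice.

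Total counts on genes ranged from 16721319 to 34033340 per library, with a median of 24730020. Levels are given as CPM, counts scaled to library size with TMM factors, which are relative to the other transcripts of the same library. In bulk samples such as these, fewer cells of a type and less RNA per cell cannot be told apart. The label CD8+ T cell was checked against marker genes. Cd3e ranged from 374 to 631 CPM and Cd8a from 674 to 1600 CPM over all libraries, whereas Cd4 reached at most 2.48 CPM. Of the other CD8 T cell markers, Cd3g ranged from 399 to 1200 CPM and Cd8b1 from 212 to 414 CPM. The effector genes on the same list varied far more, Gzmb from 36.7 to 9010 CPM and Prf1 from 11.1 to 686 CPM. The summed CPM was at most 0.381 for 3 B cell markers, 1.02 for 4 myeloid markers and 1.13 for 2 stromal markers. Of the 2 platelet markers, Pf4 was at 0 in all groups other than pH 6.6 without IL-2, where it reached 0.0327 CPM, and Itga2b was measured at 0.852 to 23.6 CPM. Of the 2 NK cell markers, Ncr1 was at most 0.0694 CPM, and Klrb1c ranged from 8.27 to 94.9 CPM.

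Actin filaments grow from monomers that profilin delivers and thymosins hold in reserve, and they are taken apart by cofilin. The Arp2/3 complex starts branches, formins and Ena/VASP proteins lengthen filaments, and capping proteins stop their growth. In cytotoxic T cells these filaments carry migration, the contact with a target cell and the delivery of lytic granules. Many genes of this machinery are known targets of serum response factor, which binds the CArG box.

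The promoters of Actg1 and Vcl are shown because they hold a CArG box, and those of Cfl1 and Actn1 because these genes had the largest fall and the largest rise among the members at pH 6.6 relative to pH 7.4 with IL-2. The sequences are those of RefSeq on GRCm38.p6, read 5′ to 3′ on the strand of the gene, up to the base before the annotated exons of that gene. Capitals mark the CArG box in the first 2 sequences and GC boxes (GGGCGG, or CCGCCC on the other strand) in the promoter of Actn1. The stretches of Actg1 and Vcl also hold 6 and 4 GC boxes, left in lower case, and the stretch of Cfl1 holds neither motif. The regions are chr11:120348543-120348745 on the minus strand for Actg1, chr14:20929148-20929397 on the plus strand for Vcl, chr12:80260372-80260613 on the minus strand for Actn1 and chr19:5490205-5490454 on the plus strand for Cfl1.
Actg1: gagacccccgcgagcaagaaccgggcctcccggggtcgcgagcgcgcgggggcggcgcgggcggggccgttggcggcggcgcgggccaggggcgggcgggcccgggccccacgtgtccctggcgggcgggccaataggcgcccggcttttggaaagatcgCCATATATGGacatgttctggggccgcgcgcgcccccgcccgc
Vcl: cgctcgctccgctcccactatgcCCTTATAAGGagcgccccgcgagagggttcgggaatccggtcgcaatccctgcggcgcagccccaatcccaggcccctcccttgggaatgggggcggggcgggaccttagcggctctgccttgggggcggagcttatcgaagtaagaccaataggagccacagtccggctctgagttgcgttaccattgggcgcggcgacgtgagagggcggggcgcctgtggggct
Actn1: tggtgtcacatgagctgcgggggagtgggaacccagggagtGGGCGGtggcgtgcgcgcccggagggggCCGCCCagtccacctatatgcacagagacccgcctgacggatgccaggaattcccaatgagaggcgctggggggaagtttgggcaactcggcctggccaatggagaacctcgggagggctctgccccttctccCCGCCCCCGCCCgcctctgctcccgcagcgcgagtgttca
Cfl1: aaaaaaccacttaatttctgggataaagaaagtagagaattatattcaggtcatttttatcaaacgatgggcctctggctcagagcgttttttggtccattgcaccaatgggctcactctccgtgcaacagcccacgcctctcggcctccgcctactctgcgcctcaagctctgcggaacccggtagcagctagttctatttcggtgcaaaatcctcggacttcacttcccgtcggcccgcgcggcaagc
The CArG box lies 43 to 34 bases before the annotated exons of Actg1, which is 90 to 81 bases before its RefSeq start, since 47 bases between the RefSeq start and the printed stretch are exonic in the annotation. That of Vcl lies 227 to 218 bases before its start. Over windows of 300 bases, searched on both strands, 4 of the 45 members with a promoter entry (8.89%) held a CArG box, against 1.53% of the 9977 genes tested that had an entry. The other members with a match were Arpc4, where it lies inside an exon of an antisense gene, and Myl6, where it lies in 1 of 2 annotated promoters and inside another transcript of the gene. The GC box was found in 37 of the 45 members (82.2%) and in 67.6% of the genes tested. A match is a description of these letters and not a measured binding site.

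The summed CPM of the 48 members was higher at pH 7.4 with IL-2 than in any other 24 h condition apart from pH 7 with IL-2. Given as a percentage of the CPM scale, this sum was 3.50% ± 0.131 (SD, n = 5) at pH 7.4 with IL-2, with libraries from 3.29% to 3.65%. Since the TMM factors enter it, it is not a plain share of a library's counts. In IL-2 at lower pH it was 3.33% ± 0.123 (pH 7) and 2.37% ± 0.103 (pH 6.6). Without IL-2 it was 2.0% ± 0.0996 at pH 7.4, 1.97% ± 0.0908 at pH 7 and 2.14% ± 0.066 at pH 6.6, and it was 3.13% ± 0.322 at 0 h. The sums were not computed with library totals as the only scaling. That scaling moved the members' median log2 fold change at pH 6.6 relative to pH 7.4 without IL-2 from 0.14 to -0.01. The order of the sums at pH 7.4 and pH 6.6 without IL-2 is therefore uncertain. The 5 libraries at pH 6.6 with IL-2, at 2.29% to 2.5%, lay below every library at pH 7.4 with IL-2 and above every library without IL-2. The sum of the 7 nucleation and elongation genes ran against this, at 2531 ± 120 CPM at pH 7.4 with IL-2 and 3012 ± 144 CPM at pH 6.6 with IL-2.

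**Figure D1:**
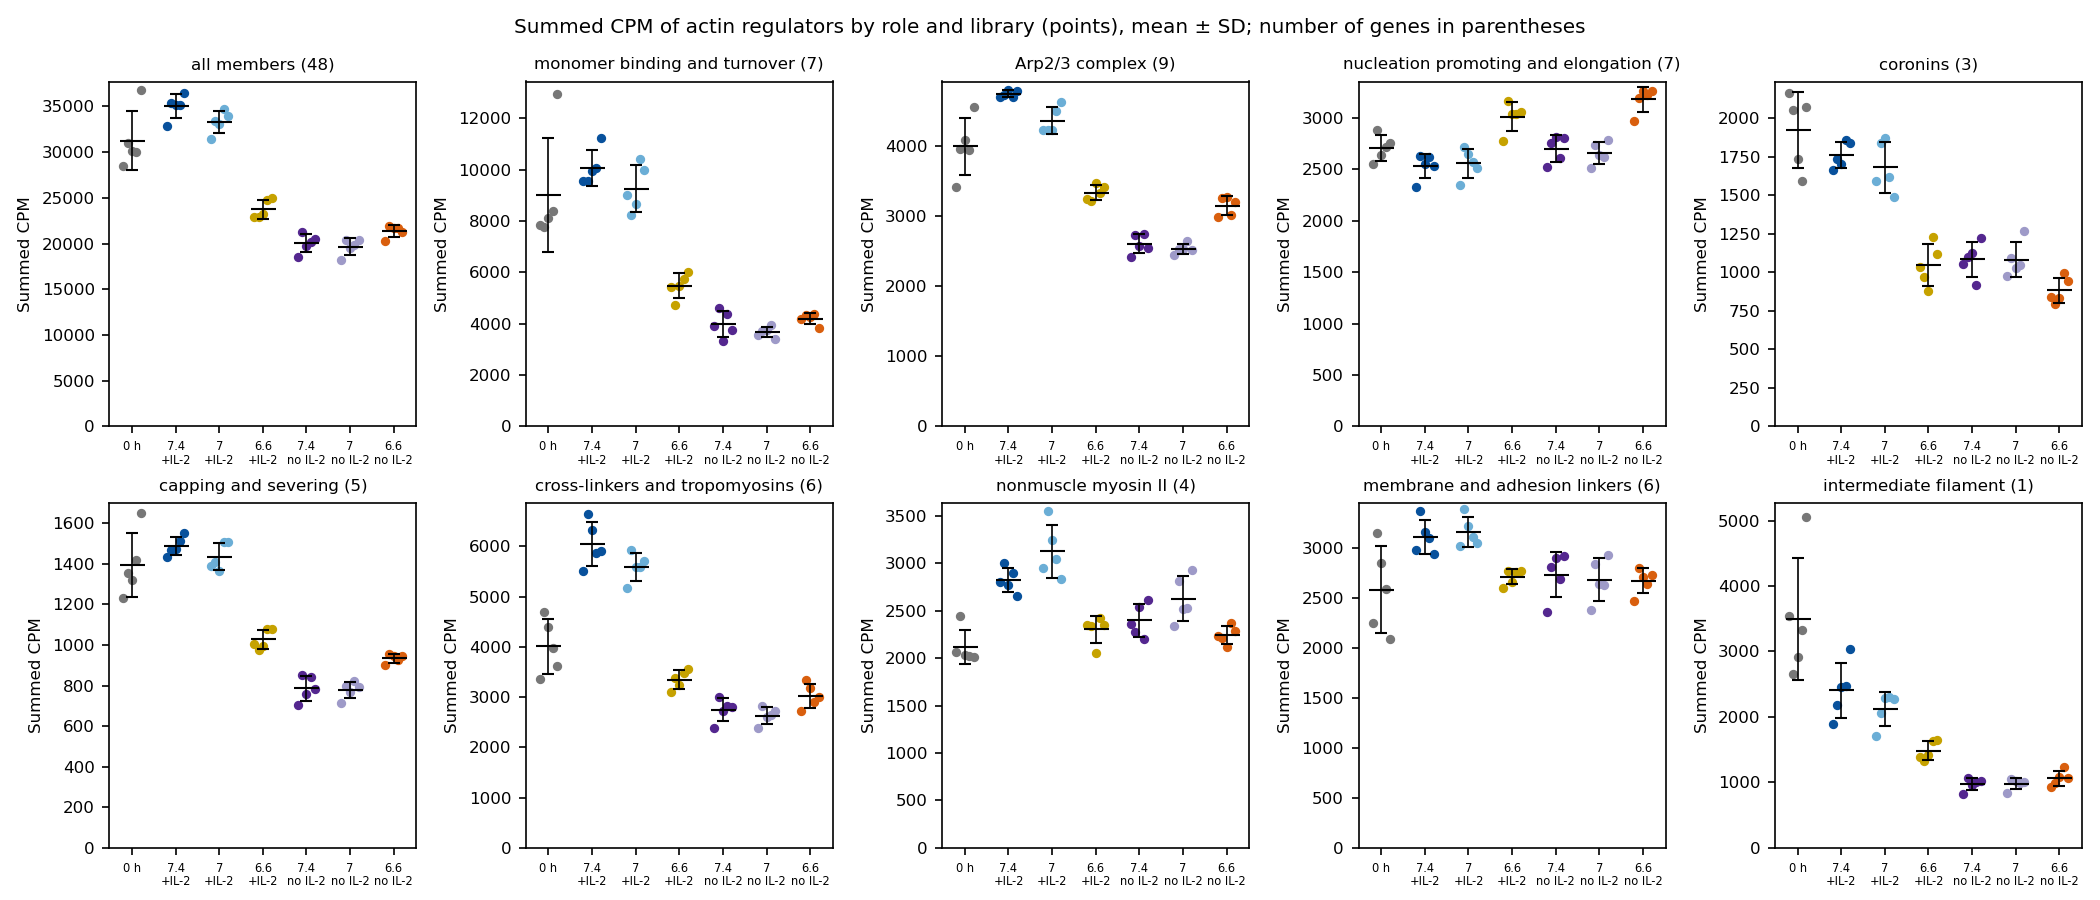
Summed CPM of all members and of each role group, in every library (points), with mean and SD of the 5 libraries of a group (bars); the y axis starts at 0. The sum of all members lies between 32870 and 36480 CPM at pH 7.4 with IL-2, between 22880 and 25010 at pH 6.6 with IL-2 and between 18520 and 21210 at pH 7.4 without IL-2.

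At pH 6.6 relative to pH 7.4 with IL-2, 34 of the 48 members were lower and 8 higher in edgeR's quasi-likelihood test, with a Benjamini-Hochberg adjusted p under 0.05 over all genes tested. Of all genes tested, 76.3% were called in this comparison, 40.9% as lower and 35.4% as higher. The members' median log2 fold change was -0.48, against -0.07 for all genes tested. Without IL-2, the same step in pH gave 21 members higher and 5 lower, where 67.0% of all genes were called, 31.6% as higher and 35.4% as lower, with a median of 0.14 against -0.03. These counts depended on the scaling: with library totals as the only scaling, 10 members were higher and 13 lower without IL-2, the share of all calls that were higher went from 47.2% to 34.7%, and the median of all genes moved from -0.03 to -0.19.

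IL-2 was compared with no IL-2 at each pH. The comparison at pH 7.4 shares its IL-2 libraries with the comparison of pH 6.6 and pH 7.4 with IL-2, so the counts of the 2 are not independent. At pH 7.4, 37 members were higher with IL-2 and 6 lower, while 80.4% of all genes were called, 39.3% as higher and 41.1% as lower. At pH 7, the counts were 39 higher and 6 lower, beside 37.6% and 39.5% of all genes (77.2% in either direction). At pH 6.6, 17 members were higher and 3 lower, beside 13.2% and 10.6% of all genes (23.7% in either direction). The members' median log2 fold change with IL-2 was 0.80 at pH 7.4, 0.81 at pH 7 and 0.09 at pH 6.6, whereas that of all genes was -0.04 at each pH. The interaction, which is the effect of pH 6.6 with IL-2 minus that without IL-2 and equals the IL-2 effect at pH 6.6 minus that at pH 7.4, was below 0 for 33 members and above 0 for 5. It was called for 67.0% of all genes, below 0 for 32.8% and above 0 for 34.3%. With library totals only, the share of all calls above 0 in the interaction went from 51.1% to 62.8%, and the members counted 29 below 0 and 7 above 0. At pH 6.6 the share of IL-2 calls that were higher went from 55.5% to 74.6% under that scaling, with 18 members higher and 2 lower.

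**Figure D2:**
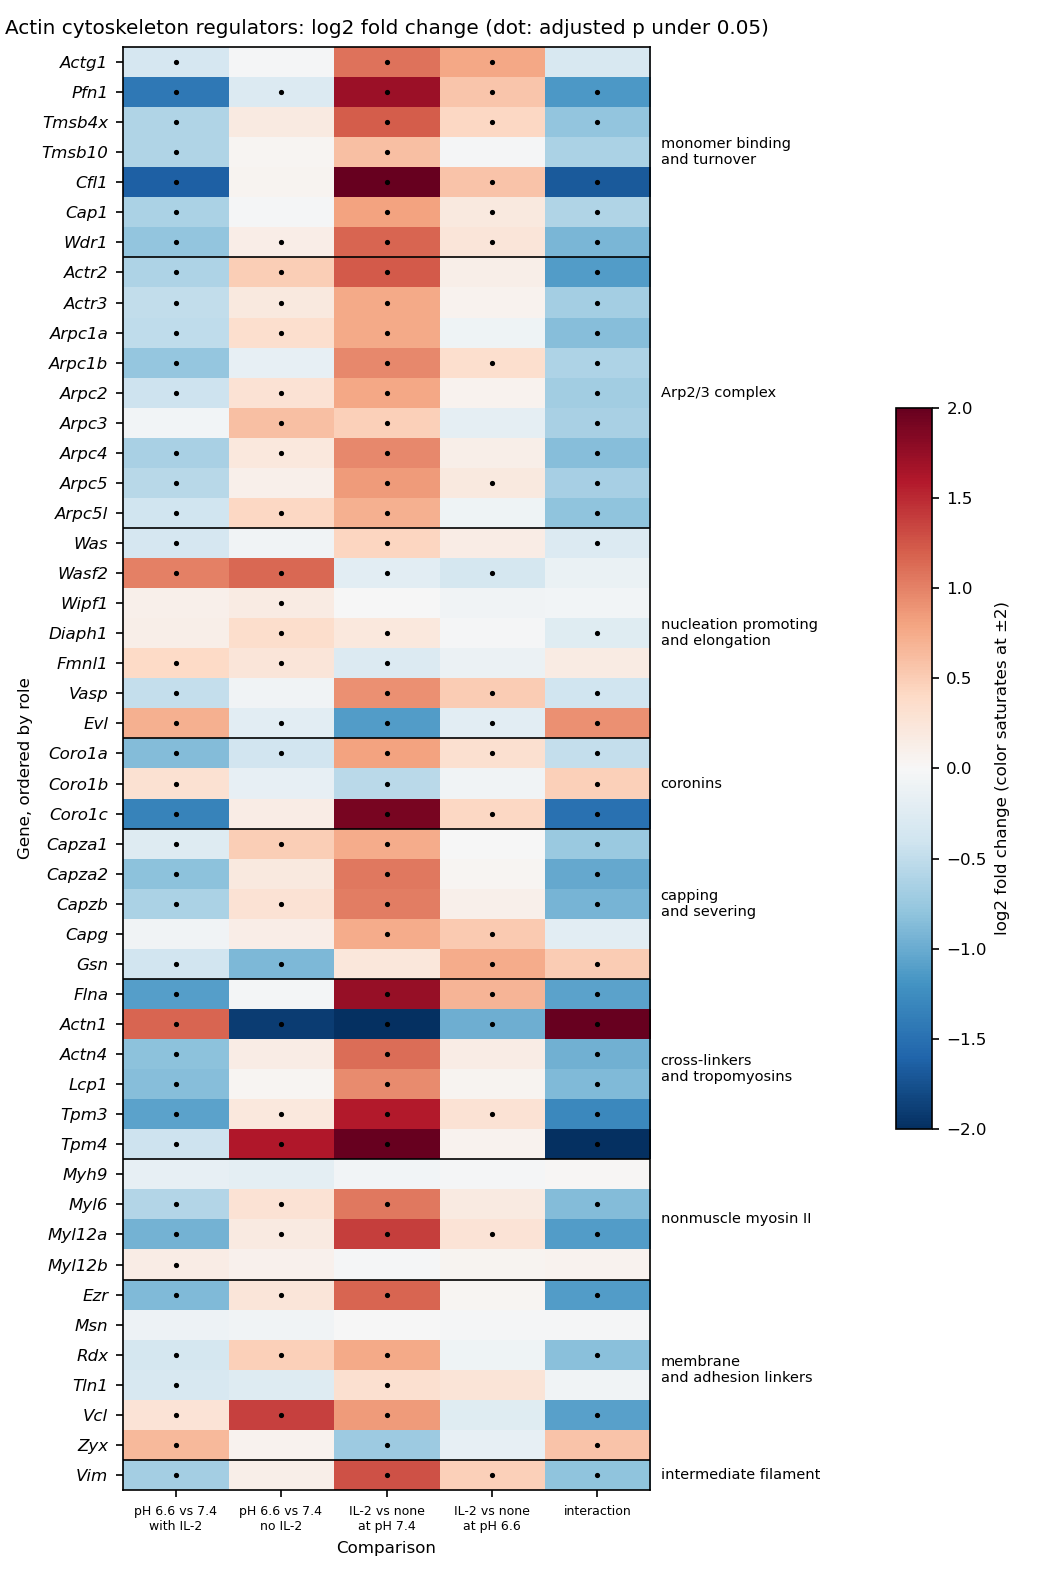
Log2 fold change of the 48 members (rows, ordered by role) in 5 comparisons (columns), on a colour scale that saturates at -2 and 2; a dot marks an adjusted p under 0.05 in edgeR. The column for IL-2 at pH 7.4 holds 37 members called higher and 6 called lower, and that for pH 6.6 with IL-2 holds 34 lower and 8 higher.

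All 7 genes of monomer binding and turnover fell at pH 6.6 relative to pH 7.4 with IL-2, and all 7 rose with IL-2 at pH 7.4. With library totals only, 6 of 7 were called in each, without Actg1 (-0.26) in the first and Tmsb10 (0.45) in the second. Cfl1 (chromosome 19, 5490455 to 5495201, plus strand, GRCm38), which encodes cofilin, the severing factor of actin filaments, had the largest fall of all members. In replicates 1 to 5 it was at 1720, 1719, 1788, 1886 and 1956 CPM at pH 7.4 with IL-2, and at 562, 501.5, 515, 682 and 661 CPM at pH 6.6 with IL-2. Without IL-2 it was at 353, 400.5, 358, 379 and 413 CPM at pH 7.4 and at 369, 378, 397, 419 and 405 CPM at pH 6.6. All libraries at pH 7.4 with IL-2 were thus above all at pH 6.6 with IL-2, and these were above all libraries without IL-2, which overlapped between the pH values. Cfl1 fell by 1.64 ± 0.078 (SE) on the log2 scale at pH 6.6 with IL-2, which is 3.11-fold (adjusted p = 1.17e-18, edgeR). Its change without IL-2 was 0.05 ± 0.076 (adjusted p = 0.582). IL-2 raised it 4.76-fold at pH 7.4 and 1.48-fold at pH 6.6, and the interaction was -1.69 ± 0.108. Antisense transcripts overlap 16.5% of its exons.

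Pfn1 (chromosome 11, 70651850 to 70654644, minus strand) encodes profilin, which feeds monomers to growing ends. It was at 1529, 1641, 1604, 1873 and 1864 CPM at pH 7.4 with IL-2, at 595, 591, 499.5, 766 and 723 CPM at pH 6.6 with IL-2, and at 513, 491, 484, 493.5 and 623 CPM at pH 7.4 without IL-2. The last 2 of these groups overlapped, and both lay below the first. Pfn1 fell by 1.43 ± 0.097 on the log2 scale at pH 6.6 with IL-2, and by 0.27 ± 0.096 without IL-2 (adjusted p = 0.0131), a call that was lost without replicate 5, where it was -0.18. Tmsb4x (chromosome X, 167207093 to 167209315, minus strand), the main thymosin of these cells, had the highest level per exon length of all members in every group. It was at 4207, 4038, 4224, 4126 and 5002 CPM at pH 7.4 with IL-2 and at 2917, 2311, 2951, 2862 and 3142 CPM at pH 6.6 with IL-2, with no overlap, and replicate 5 stood above the other 4 at pH 7.4. Without IL-2 it ranged from 1408 to 2287 CPM at pH 7.4 and from 1862 to 2300 CPM at pH 6.6. It fell by 0.61 ± 0.153 on the log2 scale at pH 6.6 with IL-2 (adjusted p = 0.000664), and its change without IL-2 was 0.19 ± 0.153.

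Of the rest of this group, Wdr1, a cofactor of cofilin, fell by 0.79 on the log2 scale at pH 6.6 with IL-2. Cap1, which recycles monomers, fell by 0.63, the second thymosin Tmsb10 by 0.60, and Actg1, the cytoplasmic gamma actin, by 0.34. IL-2 at pH 7.4 raised them by 1.16 for Wdr1, 0.80 for Cap1, 0.61 for Tmsb10 and 1.09 for Actg1 on the log2 scale. Actg1 kept a higher level with IL-2 at pH 6.6 as well (0.77 ± 0.117), and its interaction of -0.31 was not called (adjusted p = 0.0898). Wdr1 rose by 0.14 without IL-2, where library totals as the only scaling turned its sign to -0.02. The transcripts of Actg1 and Tmsb10 share sequence with other genes: 62.6% and 73.0% of their 50-base windows were unique among genes, so their counts are uncertain.

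The Arp2/3 complex nucleates branched filaments. All 9 genes were higher with IL-2 at pH 7.4, by 0.47 to 1.23 on the log2 scale, and 8 of 9 were lower at pH 6.6 with IL-2. At pH 6.6 without IL-2, 7 of 9 were higher, and the interaction was below 0 for all 9, from -1.12 to -0.62. With library totals as the only scaling, 4 were higher and 1 lower at pH 6.6 without IL-2. The summed CPM of the 9 genes was 4750 ± 50.38 (SD) at pH 7.4 with IL-2, 3338 ± 106 at pH 6.6 with IL-2, 2608 ± 136 at pH 7.4 without IL-2 and 3152 ± 133 at pH 6.6 without IL-2. The sums of pH 6.6 with and without IL-2 overlapped between 3224 and 3274 CPM.

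Arpc1b (chromosome 5, 145114215 to 145130705, plus strand) is the form of subunit 1 that prevails in blood cells, and it had the largest fall of the complex. It was at 492, 524, 479, 592 and 552 CPM at pH 7.4 with IL-2, and at 317, 284, 253, 361.5 and 326 CPM at pH 6.6 with IL-2. It was at 276, 252, 275, 243 and 314 CPM at pH 7.4 without IL-2 and at 237.5, 222, 223, 279 and 258 CPM at pH 6.6 without IL-2. Only the libraries at pH 7.4 with IL-2 stood clear of the rest among these 4 groups. Arpc1b fell by 0.78 ± 0.095 on the log2 scale at pH 6.6 with IL-2 (adjusted p = 8.18e-09, edgeR), and its change without IL-2 was -0.16 ± 0.095, which became a called fall of 0.31 with library totals only. Antisense transcripts overlap 18.2% of its exons.

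The second form of subunit 1, Arpc1a, fell by 0.50 on the log2 scale at pH 6.6 with IL-2 and rose by 0.34 without IL-2. Actr2 and Actr3, the actin-like subunits, fell by 0.62 and 0.49 with IL-2 and rose by 0.49 and 0.20 without it. The counts of Actr3 are uncertain, since 73.7% of its 50-base windows were unique among genes. Arpc2 and Arpc4, the core subunits, fell by 0.41 and 0.64 with IL-2 and rose by 0.29 and 0.20 without it. With library totals only, the rises of Actr3, Arpc2 and Arpc4 without IL-2 were not called. Same-strand genes overlap 12.2% of the exons of Arpc4. Arpc5l fell by 0.40 with IL-2 and rose by 0.41 without it, and its paralogue Arpc5 fell by 0.56 with IL-2 and had a change of 0.10 without it, which was not called. Arpc3 was the exception with IL-2, at -0.05 (not called), and it had the largest rise of the complex without IL-2, at 0.60.

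Genes of nucleation promotion and elongation split in direction. At pH 6.6 with IL-2, Wasf2, Fmnl1 and Evl were higher, Was and Vasp were lower, and Wipf1 (0.11) and Diaph1 (0.12) were not called. Wasf2 (chromosome 4, 133130505 to 133199756, plus strand) encodes WAVE2, which activates the Arp2/3 complex at the leading edge. It was at 208, 229, 210, 204 and 185 CPM at pH 7.4 with IL-2 and at 325, 506, 475, 385 and 405 CPM at pH 6.6 with IL-2. Without IL-2 it was at 216, 247, 255, 236 and 247 CPM at pH 7.4 and at 451, 589.5, 581, 489 and 546 CPM at pH 6.6. Every library at pH 6.6 was above every library at pH 7.4, whether IL-2 was present or not. The rise was 2.01-fold with IL-2 (1.00 ± 0.075 on the log2 scale, adjusted p = 7.77e-14, edgeR) and 2.21-fold without IL-2 (1.14 ± 0.075), and the interaction of -0.14 ± 0.104 was not called. With IL-2 it was lower by 0.21 on the log2 scale at pH 7.4, a call that was lost without the replicate block and without replicate 3 or 5.

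Vasp and Evl encode Ena/VASP proteins, and with IL-2 they were called in opposite directions at pH 6.6. The third gene of this family, Enah, which is no member, fell by 0.63 ± 0.114 there. Vasp (chromosome 7, 19256929 to 19271817, minus strand) was at 406, 434, 420, 457 and 422 CPM at pH 7.4 with IL-2 and at 330.5, 291, 252, 337 and 330.2 CPM at pH 6.6 with IL-2. At pH 7.4 without IL-2 it was at 205 to 245.5 CPM, below both. It fell by 0.48 ± 0.077 on the log2 scale at pH 6.6 with IL-2, and its interaction was -0.40 ± 0.108, a call that was lost without replicate 2 (-0.27) and with library totals only (-0.17). Evl, given here although the naming rule did not select it, was at 256, 247, 256, 265 and 279 CPM at pH 7.4 with IL-2, at 379.5, 434, 432, 440.1 and 439.7 CPM at pH 6.6 with IL-2, and at 542 to 594.5 CPM at pH 7.4 without IL-2. These 3 groups did not overlap. Evl rose by 0.71 ± 0.063 at pH 6.6 with IL-2 and fell by 0.21 ± 0.063 without IL-2, and IL-2 lowered it by 1.12 at pH 7.4.

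Was, which encodes the Wiskott-Aldrich syndrome protein, fell by 0.34 on the log2 scale at pH 6.6 with IL-2. The formin Fmnl1 rose by 0.40 with IL-2 and by 0.25 without it. The formin Diaph1 and the partner protein of Was, Wipf1, rose by 0.35 and 0.16 at pH 6.6 without IL-2.

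**Figure D3:**
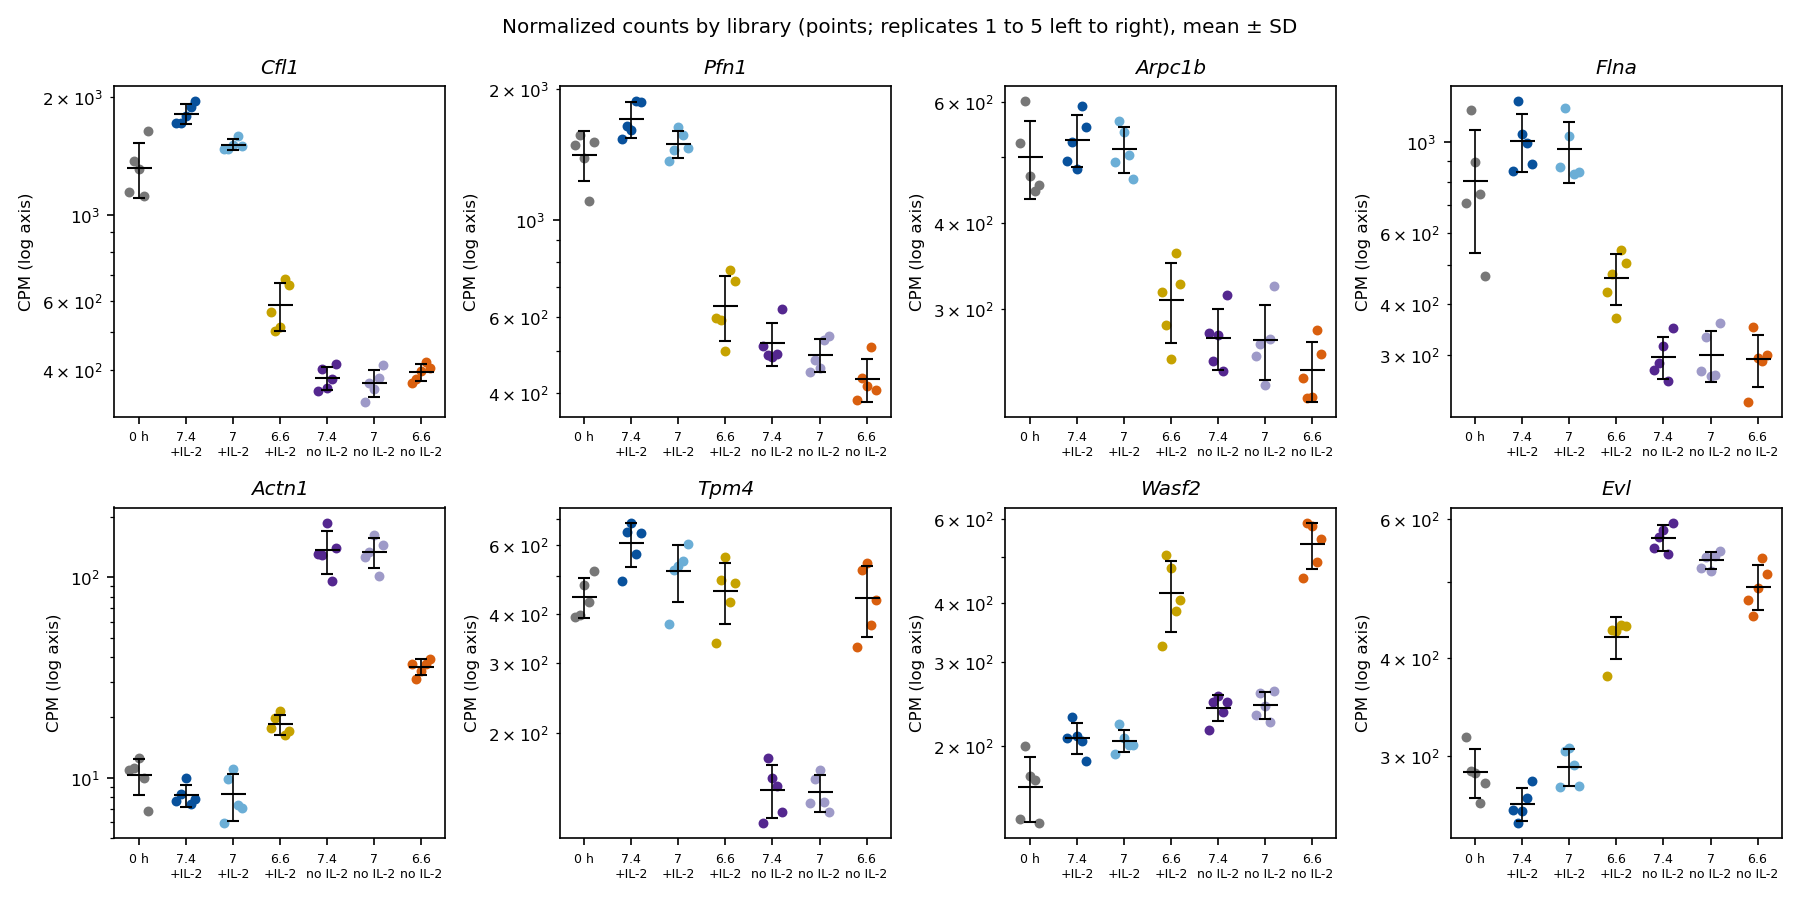
CPM of 8 members in every library (points, replicates 1 to 5 from left to right within a group) with mean and SD, on a log axis; Evl was added to genes from the naming rule. Cfl1, Pfn1, Arpc1b and Flna share high levels at 0 h, pH 7.4 with IL-2 and pH 7 with IL-2, while Actn1 peaks without IL-2 at pH 7.4 and pH 7, and all 10 libraries of Wasf2 at pH 6.6 lie above its other libraries.

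Coronins bind filaments and the Arp2/3 complex. Coro1c (chromosome 5, 113842436 to 113908758, minus strand) was at 225.5, 259, 236, 240.5 and 219 CPM at pH 7.4 with IL-2 and at 95.8, 90.4, 78.2, 103.5 and 99.2 CPM at pH 6.6 with IL-2. Without IL-2 it ranged from 58.4 to 68.4 CPM at pH 7.4 and from 68.2 to 71.7 CPM at pH 6.6. Its levels fell from group to group without overlap among pH 7.4 with IL-2, pH 6.6 with IL-2 and pH 7.4 without IL-2. Coro1c fell 2.52-fold at pH 6.6 with IL-2 (1.34 ± 0.077 on the log2 scale lower, adjusted p = 1.44e-16, edgeR), and its interaction was -1.49 ± 0.109. Coro1a, the main coronin of lymphocytes, fell by 0.86 at pH 6.6 with IL-2 and by 0.38 without IL-2.

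Coro1b (chromosome 19, 4148619 to 4154035, plus strand) went the other way. It was at 154, 160, 159.6, 174 and 180.1 CPM at pH 7.4 with IL-2, at 213, 194, 180.0, 223 and 209 CPM at pH 6.6 with IL-2, and at 229, 241, 245, 209.6 and 274 CPM at pH 7.4 without IL-2. The first 2 groups meet at their edges, and all 5 libraries were higher at pH 6.6 than the library of the same replicate at pH 7.4. It rose by 0.30 ± 0.092 on the log2 scale at pH 6.6 with IL-2 (adjusted p = 0.00415), IL-2 lowered it by 0.53 ± 0.093 at pH 7.4, and the interaction was 0.47 ± 0.131. Another gene on the same strand overlaps 13.5% of its exons.

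Among capping and severing proteins, Capza2 (chromosome 6, 17636234 to 17666972, plus strand), an alpha subunit of capping protein, had the largest fall. It was at 489.5, 437, 446, 404 and 394 CPM at pH 7.4 with IL-2 and at 254, 238, 286, 219 and 236.5 CPM at pH 6.6 with IL-2, with no overlap. Without IL-2 it ranged from 181 to 239 CPM at pH 7.4 and from 188 to 267 CPM at pH 6.6, which overlap each other and pH 6.6 with IL-2. The fall was 0.82 ± 0.111 on the log2 scale (adjusted p = 6.05e-08), and the interaction was -1.02 ± 0.156. The second alpha subunit, Capza1, fell by 0.26 with IL-2 and rose by 0.49 without it, and since only 38.6% of its 50-base windows are unique among genes, its counts are uncertain. The beta subunit, Capzb, fell by 0.63 with IL-2 and rose by 0.29 without it.

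The remaining genes of this group behaved apart. Capg, a capping protein of the gelsolin family, had a change of -0.07 at pH 6.6 with IL-2 and rose by 0.74 with IL-2 at pH 7.4. Gsn, gelsolin, which severs and caps filaments, had means with IL-2 of 52.4 CPM ± 16.6 (SD) at pH 7.4 and 39.9 ± 11.1 CPM at pH 6.6. Without IL-2 its means were 43.4 ± 3.96 CPM at pH 7.4 and 23.7 ± 4.99 CPM at pH 6.6. It fell by 0.38 on the log2 scale at pH 6.6 with IL-2, lower in 4 of 5 replicate pairs, and by 0.89 without it, and its interaction was above 0 (0.51, adjusted p = 0.0153). At 0 h its mean was 181 CPM, above all 24 h groups.

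Cross-linkers and tropomyosins held the 2 members with the largest interactions. Actn1 (chromosome 12, 80167547 to 80260371, minus strand), a non-muscle alpha-actinin that bundles filaments, was low with IL-2 and high without it. It was at 7.62, 8.26, 9.93, 7.37 and 7.81 CPM at pH 7.4 with IL-2 and at 17.7, 19.8, 21.5, 16.3 and 17.1 CPM at pH 6.6 with IL-2. Without IL-2 it was at 131, 129.9, 188, 95.4 and 140.0 CPM at pH 7.4 and at 37.0, 30.9, 34.2, 37.0 and 39.3 CPM at pH 6.6. None of these 4 groups overlapped, so that pH 6.6 lay above pH 7.4 with IL-2 and below it without IL-2. The rise with IL-2 was 2.25-fold (1.17 ± 0.13 on the log2 scale, adjusted p = 1.03e-09, edgeR), the fall without IL-2 was 3.74-fold (-1.90 ± 0.121), and the interaction was 3.07 ± 0.177. IL-2 lowered Actn1 16.5-fold at pH 7.4 and 1.96-fold at pH 6.6.

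Tpm4 (chromosome 8, 72134975 to 72153142, plus strand), a tropomyosin that coats filaments, had the opposite pattern. It was at 486, 647, 682, 571 and 646 CPM at pH 7.4 with IL-2 and at 339, 489, 559.8, 429 and 480.3 CPM at pH 6.6 with IL-2. Without IL-2 it was at 118, 173, 154, 146 and 126 CPM at pH 7.4 and at 330, 519, 541, 375 and 435 CPM at pH 6.6. Among the groups listed here, only the 5 libraries at pH 7.4 without IL-2 stood apart, below the others, and pH 6.6 gave like ranges with and without IL-2. Tpm4 rose 3.04-fold at pH 6.6 without IL-2 (1.61 ± 0.094, adjusted p = 1.45e-15, edgeR) and fell 1.33-fold with IL-2 (-0.41 ± 0.092, lower in 5 of 5 replicate pairs), with an interaction of -2.01 ± 0.131. IL-2 raised it 4.23-fold at pH 7.4, and at pH 6.6 its change was 0.07 ± 0.092, which was not called. Of the 50-base windows of Tpm4, 88.4% were unique among genes.

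Flna (chromosome X, 74223461 to 74249820, minus strand), filamin A, which joins filaments at angles and anchors them to receptors, was at 849, 1264, 1048, 997.5 and 885 CPM at pH 7.4 with IL-2 and at 428, 475, 371, 545 and 507 CPM at pH 6.6 with IL-2. It ranged from 260 to 350.0 CPM at pH 7.4 without IL-2 and from 230.5 to 352 CPM at pH 6.6 without IL-2. The IL-2 groups of both pH values were above both groups without IL-2, and these 2 overlapped. Flna fell 2.14-fold at pH 6.6 with IL-2 (-1.10 ± 0.138, adjusted p = 1.37e-08), and its interaction was -1.06 ± 0.194. Among the rest, the bundling protein Lcp1 fell by 0.85, the second alpha-actinin Actn4 by 0.82 and the tropomyosin Tpm3 by 1.07 on the log2 scale at pH 6.6 with IL-2. IL-2 at pH 7.4 raised them by 0.94, 1.11 and 1.58. The counts of Tpm3 are uncertain, since 76.8% of its 50-base windows were unique among genes.

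Nonmuscle myosin II pulls on actin filaments. With TMM scaling, the heavy chain gene Myh9 was not called in any comparison of pH or IL-2 at 24 h, with values from -0.19 to 0.25 on the log2 scale. With library totals only, 1 gene of this group was called lower at pH 6.6 without IL-2 and 1 with IL-2 at pH 7.4, where TMM gave 0 in each. The essential light chain, Myl6, fell by 0.59 with IL-2 at pH 6.6 and rose by 0.29 without IL-2. The neighbouring regulatory light chain genes Myl12a (chromosome 17, 70993656 to 71002878, minus strand) and Myl12b (chromosome 17, 70973133 to 70990890, minus strand) differed from each other. Myl12a was at 505, 509, 512, 558 and 566 CPM at pH 7.4 with IL-2, at 271, 260, 256, 298 and 297 CPM at pH 6.6 with IL-2 and at 195, 206, 186, 214 and 217.5 CPM at pH 7.4 without IL-2. Myl12b was at 235, 191.5, 213.5, 211 and 219 CPM, 270, 210, 233, 243 and 238 CPM, and 240, 225, 206, 205 and 210 CPM in the same 3 groups. The 3 groups were separate for Myl12a and overlapped for Myl12b.

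Myl12a fell by 0.94 ± 0.06 on the log2 scale at pH 6.6 with IL-2 (adjusted p = 1.8e-15, edgeR), and IL-2 raised it by 1.38 ± 0.061 at pH 7.4. Its rise of 0.17 at pH 6.6 without IL-2 was lost with library totals only (0.02), with the looser filter, and without replicate 1 or 2. Myl12b rose by 0.16 ± 0.069 at pH 6.6 with IL-2 (adjusted p = 0.0407), a call that was lost with the looser filter, without the replicate block, and without replicate 3 or 4. IL-2 at pH 7.4 gave Myl12b a change of -0.02 ± 0.069. Both counts are uncertain, since 83.6% and 74.6% of the 50-base windows of Myl12a and Myl12b were found in no other gene, and same-strand genes overlap 13.8% and 26.7% of their exons.

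Proteins that link filaments to the membrane also split. Ezr (chromosome 17, 6738041 to 6782784, minus strand), ezrin, was at 361, 425, 427, 425 and 445 CPM at pH 7.4 with IL-2 and at 205, 238, 228, 225 and 236 CPM at pH 6.6 with IL-2. It ranged from 169 to 198 CPM at pH 7.4 without IL-2 and from 193 to 241 CPM at pH 6.6 without IL-2, where it overlapped with pH 6.6 with IL-2. It fell by 0.88 ± 0.062 on the log2 scale at pH 6.6 with IL-2 (adjusted p = 1.87e-14, edgeR) and rose by 0.24 ± 0.062 without IL-2, a call that was lost with library totals only (0.09). Rdx, radixin, fell by 0.36 with IL-2 and rose by 0.48 without it. Msn, moesin, the third gene of this family, had log2 fold changes from -0.10 to 0.07 in the comparisons of pH and IL-2 at 24 h, and none was called with TMM scaling. With library totals only, 2 genes of the membrane and adhesion linkers were called lower at pH 6.6 without IL-2, where TMM gave 0.

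Zyx (chromosome 6, 42349630 to 42360213, plus strand) encodes zyxin, a protein of adhesion sites. Its levels were 129.5, 196, 180, 209 and 190.1 CPM at pH 7.4 with IL-2, at 210.5, 306, 283, 313 and 298 CPM at pH 6.6 with IL-2, and at 231, 299, 344, 255 and 366 CPM at pH 7.4 without IL-2. The ranges at the 2 pH values with IL-2 lay next to each other without overlap, and pairs of the same replicate rose in 5 of 5 from pH 7.4 to pH 6.6 with IL-2, by 0.64 ± 0.112 on the log2 scale (adjusted p = 4.78e-06), and IL-2 lowered Zyx by 0.73 ± 0.112 at pH 7.4. Vcl, vinculin, rose by 0.27 with IL-2 and by 1.36 without it, from a mean of 10.9 CPM at pH 7.4 to 28.1 CPM at pH 6.6 without IL-2. Antisense transcripts overlap 25.5% of the exons of Vcl. Tln1, talin, which joins integrins to actin, fell by 0.32 with IL-2, and its change of -0.25 without IL-2 was not called.

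Vim (chromosome 2, 13573927 to 13582826, plus strand) encodes vimentin, an intermediate filament protein. It was at 1888, 2175, 2450, 2466 and 3041 CPM at pH 7.4 with IL-2 and at 1396, 1322, 1425, 1635 and 1642 CPM at pH 6.6 with IL-2. Without IL-2 it ranged from 829.6 to 1074 CPM at pH 7.4 and from 931 to 1239 CPM at pH 6.6. The IL-2 groups of both pH values were above the groups without IL-2 and did not overlap each other. Vim fell by 0.69 ± 0.102 on the log2 scale at pH 6.6 with IL-2 (adjusted p = 3.74e-07), and its interaction was -0.80 ± 0.145.

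Set side by side over groups that share no libraries, 15 members (31.2%) were lower at pH 6.6 with IL-2 and higher at pH 6.6 without IL-2, as were 9.89% of all genes tested. They were Actr2, Actr3, Arpc1a, Arpc2, Arpc4 and Arpc5l of the Arp2/3 complex, Capza1 and Capzb, Ezr and Rdx, Myl6 and Myl12a, Tpm3 and Tpm4, and Wdr1. With library totals as the only scaling, 6 of these remained, namely Actr2, Arpc1a, Arpc5l, Capza1, Rdx and Tpm4, beside 6.64% of all genes. Coro1a, Gsn and Pfn1 were lower in both, and Fmnl1, Vcl and Wasf2 higher in both, which is 6.25% of members each, beside 17.9% and 15.9% of all genes. Actn1 and Evl (4.17%) were higher with IL-2 and lower without it, beside 8.39% of all genes. These sets also depended on the scaling. With library totals only, Arpc1b, Cap1, Vasp and Was joined the members lower in both. That made 7 members (14.6%), beside 20.2% of all genes. Under the same scaling, Diaph1 took the place of Fmnl1 among those higher in both, and Coro1b joined Actn1 and Evl.

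**Figure D4:**
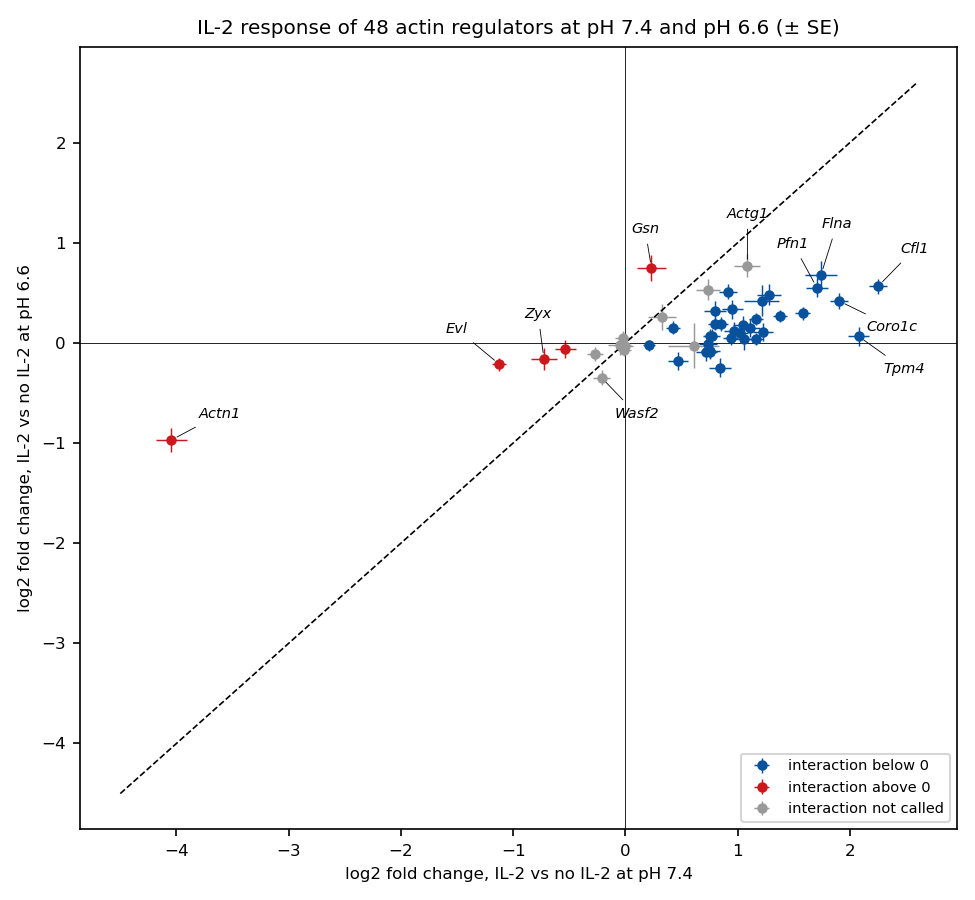
Log2 fold change with IL-2 against no IL-2 at pH 7.4 (x axis) and at pH 6.6 (y axis) for the 48 members, with SE bars; the dashed line marks equal changes and colours give the call of the interaction. Points lie nearer 0 on the y axis than on the x axis for most members: Cfl1 moves from 2.25 to 0.57, Tpm4 from 2.08 to 0.07 and Actn1 from -4.04 to -0.97, while Gsn, at 0.23 and 0.75, lies above the line.

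The balance between related genes is given as ratios of CPM per kb of exon. Of 11 pairs computed, the libraries of pH 6.6 and pH 7.4 with IL-2 did not overlap for 8 and overlapped for 3, which were Tmsb4x to Tmsb10, Arpc1b to Arpc1a and Rdx to Msn. The share without overlap among pairs of other genes was not computed, and 76.3% of all genes tested were called in this comparison. The count is therefore not a result particular to these pairs. The mean log2 ratio of Tmsb4x to Tmsb10 was 2.57 at pH 7.4 and 2.56 at pH 6.6 with IL-2. The 5 pairs that follow, chosen after their values were seen, are among the 8. The mean log2 ratio of Actn1 to Actn4 was -5.91 ± 0.17 (SD) at pH 7.4 with IL-2, -3.92 ± 0.27 at pH 6.6 with IL-2, -0.76 ± 0.25 at pH 7.4 without IL-2 and -2.82 ± 0.14 at pH 6.6 without IL-2. Evl was below Vasp with IL-2 at pH 7.4 (-0.88 ± 0.09) and above it at pH 6.6 with IL-2 (0.30 ± 0.22) and without IL-2 (1.16 ± 0.09 at pH 7.4). The ratio of Myl12a to Myl12b was 1.03 ± 0.13 at pH 7.4 with IL-2, and it stood at -0.07 ± 0.14 at pH 6.6 with IL-2. At pH 7.4 without IL-2 it was -0.37 ± 0.15. That of Tpm4 to Tpm3 was higher at pH 6.6 (2.08 ± 0.26 with and 2.31 ± 0.22 without IL-2) than at pH 7.4 (1.42 ± 0.19 and 0.91 ± 0.20). Shared sequence makes the counts of Tpm3, Myl12a and Myl12b uncertain, and so these ratios. Ezr relative to Msn went from -0.85 ± 0.12 at pH 7.4 with IL-2 to -1.63 ± 0.07 at pH 6.6 with IL-2. Only Evl to Vasp and Myl12a to Myl12b had mean ratios on both sides of 0 among these 5. The other pairs without overlap were Arpc5 to Arpc5l, Capza1 to Capza2 and Coro1c to Coro1a.

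**Figure D5:**
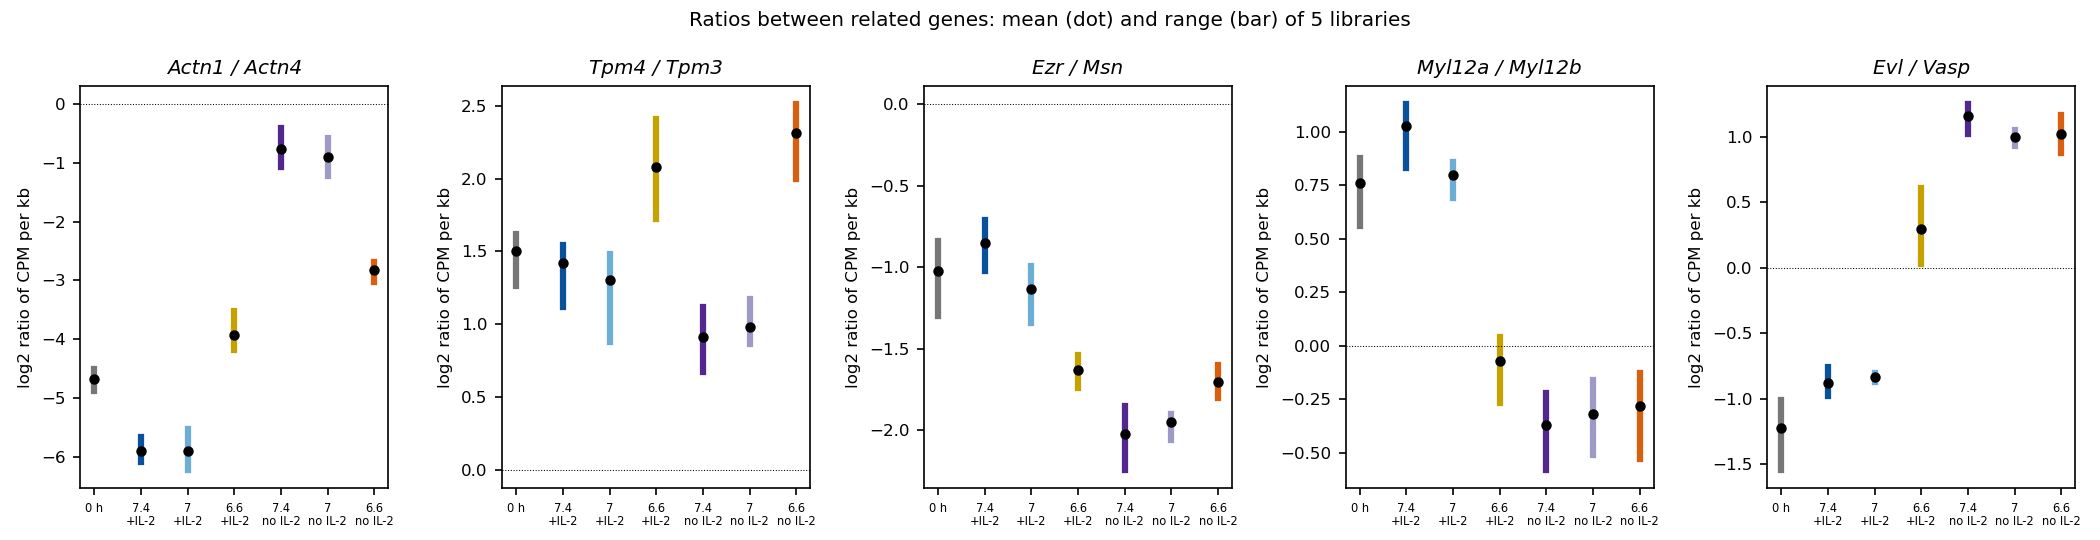
Log2 ratio of CPM per kb of exon for 5 pairs of related members in each group; dots are means and bars the range of the 5 libraries. Evl against Vasp runs from -0.88 at pH 7.4 with IL-2 to 1.16 at pH 7.4 without IL-2, and Actn1 against Actn4 from -5.91 to -0.76.

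At pH 7 the share of members called was close to that of all genes tested. With IL-2, 2 members were higher (4.17%) and 6 lower (12.5%) than at pH 7.4, beside 9.15% and 9.83% of all genes. In either direction, 16.7% of members and 19% of all genes were called. The higher members were Capg (0.43) and Gsn (0.39), and the lower ones were Ezr (-0.31), Cfl1 (-0.26), Arpc5l (-0.25), Arpc1a (-0.22), Capzb (-0.19) and Cap1 (-0.17). The 5 libraries of Ezr at pH 7 with IL-2, at 290, 359, 352, 339 and 345 CPM, lay below all 5 at pH 7.4 with IL-2, and so did those of Cfl1, at 1475, 1476, 1511, 1595 and 1496 CPM. With library totals as the only scaling, 3 were higher and 2 lower, and the share of all calls that were higher went from 48.2% to 65.7%. Without IL-2, 0 members were called in edgeR, beside 1.68% of all genes. At an unadjusted p under 0.05, edgeR gave 0 members and DESeq2 also gave 0, and edgeR on these 2 groups alone gave 8. At that threshold, the edgeR fit of all groups gave 1124 of the 13819 genes tested, 771 higher and 353 lower. The share of all genes was not computed for the fit of these 2 groups alone.

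Against CTLs at 0 h, 24 h at pH 7.4 with IL-2 left 26 members higher and 8 lower, beside 59.9% of all genes called, 29% as higher and 30.9% as lower, with a members' median log2 fold change of 0.19. After 24 h at pH 7.4 without IL-2, 6 members were higher and 35 lower, beside 75.2% of all genes called, 36.9% as higher and 38.3% as lower, with a median of -0.66. These comparisons share the libraries at 0 h. All 9 Arp2/3 genes and all 7 genes of monomer binding and turnover were lower without IL-2, whereas with IL-2 4 of each group were higher and 0 lower. Gsn fell by 1.82 on the log2 scale with IL-2 and by 2.05 without it. Actn1 rose 13.1-fold over 24 h without IL-2 (3.72 ± 0.133 on the log2 scale), starting from levels between 6.83 and 12.5 CPM at 0 h, and it fell by 0.33 ± 0.133 with IL-2.

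A list of 95 other actin regulators, such as kinases and the WAVE complex, had 91 genes tested. At pH 6.6 with IL-2, 37 of these were higher (40.7%) and 34 lower (37.4%), beside 35.4% and 40.9% of all genes. Their median was 0.07, beside -0.48 for the 48 members and -0.07 for all genes. With IL-2 at pH 7.4, 33 were higher (36.3%) and 37 lower (40.7%), beside 39.3% and 41.1% of all genes. The interaction was above 0 for 26 (28.6%) and below 0 for 28 (30.8%), beside 34.3% and 32.8% of all genes. At pH 6.6 without IL-2, 38 were higher (41.8%) and 25 lower (27.5%), beside 31.6% and 35.4% of all genes. With IL-2 at pH 6.6, 12 were higher (13.2%) and 9 lower (9.89%), beside 13.2% and 10.6% of all genes. Of those whose mean log2 CPM was 3 or more, the formin Diaph3 (-1.56 ± 0.121) and the actin binding protein Tagln2 (-1.08 ± 0.071) were among the 3 with the largest falls at pH 6.6 with IL-2. The largest rises were those of Ssh2, a phosphatase that activates cofilin, and Wasl, a ubiquitous relative of Was, both at 1.59. Of 6 genes for serum response factor and its cofactors, 4 were lower and 2 higher at pH 6.6 with IL-2. Srf itself fell by 0.47 ± 0.118 and rose by 0.74 ± 0.118 with IL-2 at pH 7.4, while its change at pH 6.6 without IL-2 was 0.18 ± 0.119.

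Other transcripts also differed between the 24 h conditions, and not all of them in the order of the members. Gzmb, an effector gene among the CD8 T cell markers, ranged from 6700 to 9010 CPM at pH 7.4 with IL-2, from 482 to 1220 CPM at pH 6.6 with IL-2 and from 60.4 to 202 CPM at pH 7.4 without IL-2. Prf1 ranged from 164 to 562, from 43.5 to 155 and from 16.5 to 41.0 CPM in the same groups. Itga2b ranged from 0.852 to 1.49, from 9.10 to 15.2 and from 5.63 to 7.88 CPM in these groups, and Klrb1c from 43.0 to 45.8, from 19.3 to 33.2 and from 20.6 to 40.8 CPM. The part of the cells' state or makeup in the members' changes was not tested. Ncr1 was at 0 in all libraries at pH 6.6, and Pf4 was at 0 in all libraries with IL-2.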

How the data were processed

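RNA of 35 libraries was made into stranded mRNA libraries and sequenced as single reads. The deposited values are raw counts per gene, which the authors made on GRCm38; the submitters' processing notes name cutadapt 1.8, STAR 2.5.2b and HTSeq 0.6.1. The strand setting of the counting and the annotation release are not given in the sources used here. Library sizes exclude the closing rows without a gene: reads not placed at 1 site made up a median of 37.1% of each file's total, reads on no feature 7.42% and ambiguous reads 0.922%. The 5 replicates are described as biological, and no pair of libraries within a group was a duplicate: over 70 such pairs, chi-square per degree of freedom was at least 6.41. Libraries of different groups were not compared in this way.

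Counts of all 7 groups were fitted together in edgeR 4.0.16 (R 4.3.3) with TMM scaling, filterByExpr at a minimum count of 10, the replicate number as a block, since the study's methods use paired tests, and robust quasi-likelihood F-tests. Calls are at a Benjamini-Hochberg adjusted p under 0.05 over 13819 genes. Samples with the same number deviated together with r over 0.1 in 5 of 5 pairs at pH 6.6 relative to pH 7.4 with IL-2, and in 95 of 105 pairs over all groups. SEs were derived from the fold change and its F statistic. Levels per kb use the union of exons in GENCODE M21. Intervals and SEs rest on 5 libraries a group. Alternatives were DESeq2 1.42.0, other scalings, a looser filter, no replicate block, only the groups compared, and each replicate left out.

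The members and lists were chosen with earlier results of these data known. Values by library are given, in each role group, for the largest called rise and fall at pH 6.6 relative to pH 7.4 with IL-2, and for the 3 largest interactions and the 3 highest levels per length at pH 7.4 with IL-2; Evl was added after its values were seen. Of the list of other actin regulators, the 3 largest falls and 2 largest rises were to be named, and 1 of the falls is not reported here. Promoters came from RefSeq, with entries for 45 of the 48 members (none for Coro1b, Arpc5l and Diaph1). Shared sequence was measured as the share of 50-base windows of a gene's exons found in no other gene.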

Additional observations from a re-analysis of the deposited data

Results flagged for a closer look

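Some libraries stood far from the other 4 of their group, by Dixon's gap ratio above 0.71. Over the 17 genes given by library, 119 groups were tested and 7 were flagged, where chance flags about 1 in 20. Replicate 1 was low for Zyx at pH 6.6 with IL-2 (211 CPM against 283 to 313), for Ezr at pH 7.4 with IL-2 (361 against 425 to 445) and at pH 7 with IL-2 (290 against 339 to 359), and for Vim at pH 7 without IL-2 (840 against 985 to 1050). Replicate 5 was high for Myl12a at 0 h (481 against 365 to 392), for Tmsb4x at pH 7.4 with IL-2 (5000 against 4040 to 4220) and for Pfn1 at pH 7.4 without IL-2 (623 against 484 to 513).

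For 15 of these genes the interaction in edgeR was called, so that pH 6.6 had unlike effects in the presence and absence of IL-2. Of all genes tested, 67.0% had a called interaction. These genes were picked for a large interaction, a high level, or a large change at pH 6.6 with IL-2, which is part of the interaction. Their count is therefore no test of the members. The interaction was above 0 for Actn1 (3.07, adjusted p = 4.48e-16), Zyx (0.57, adjusted p = 0.00215) and Coro1b (0.47, adjusted p = 0.00207). It was below 0 for Tpm4 (-2.01, adjusted p = 7.63e-15), Cfl1 (-1.69, adjusted p = 5.14e-15), Coro1c (-1.49, adjusted p = 1.19e-13), Pfn1 (-1.16, adjusted p = 5.59e-09), Ezr (-1.12, adjusted p = 4.9e-13), Myl12a (-1.11, adjusted p = 3.08e-13) and Flna (-1.06, adjusted p = 1.49e-05). It was also below 0 for Capza2 (-1.02, adjusted p = 9.76e-07), Vim (-0.80, adjusted p = 1.32e-05), Tmsb4x (-0.79, adjusted p = 0.00182), Arpc1b (-0.62, adjusted p = 0.00016) and Vasp (-0.40, adjusted p = 0.00161). Each of the 15 had the same sign in 5 of 5 replicates, which are the replicates that the call itself rests on.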

How the results depend on the processing

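For the 17 members given by library, 748 values were recomputed in 4 comparisons under 11 alternatives. Of these, 721 kept their side of the threshold, 15 lost the call and 12 gained it. Among values called in either setting, 0 changed direction. Sign changes between uncalled values count among the 721, such as Vim at pH 6.6 without IL-2 (0.11, and -0.04 with library totals only). The counts of members called moved by over 1.5 times in the following cases, and the cause was not tested. At pH 7 with IL-2, where 2 members were higher and 6 lower, 1 was higher with the looser filter, 0 without the replicate block and 6 with only the groups compared, and 2 were lower with library totals only and 2 with the looser filter. Leaving out 1 replicate gave 1 to 3 higher (1 without replicate 1, 2 or 3) and 1 to 5 lower (3 without replicate 2, 1 without replicate 3 and 3 without replicate 4). At pH 6.6 without IL-2, library totals only gave 10 higher and 13 lower, in place of 21 and 5. With IL-2 at pH 6.6, 5 were lower in place of 3 with only the groups compared. Over 24 h with IL-2, 5 were lower in place of 8 without the replicate block and 5 with only the groups compared, and leaving out 1 replicate gave 5 to 9 (5 without replicate 1). The replicate block moved no other count of members by over 1.5 times. The scaling assumes a common reference across libraries with no measure of RNA per cell.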

Other observations

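Ranked by CPM per kb of exon among 13787 genes, most members were abundant transcripts. At pH 7.4 with IL-2, 39 of the 48 lay in the top 10% and 10 in the top 1%, with Tmsb4x at rank 7, Pfn1 at rank 38 and Cfl1 at rank 44. At pH 6.6 with IL-2, the highest ranks were those of Tmsb4x (11), Tmsb10 (82) and Arpc2 (85), and at 0 h those of Tmsb4x (5), Vim (39) and Tmsb10 (54). The lowest member was Actn1 at pH 7.4 with IL-2 (rank 9735) and at pH 7 with IL-2 (rank 9806), and Vcl in the other 5 groups.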
